A study of Mus musculus with 9 samples.

Results

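The genes described here are the enzymes of glycolysis, the carriers that move glucose and lactate across the plasma membrane, and genes switched on by low oxygen, measured in a mouse macrophage cell line exposed to the cytokines that induce the alternatively activated (M2) state. They were chosen by name. The 37 gene symbols matched 38 rows of the deposited expression table of 26157 genes, because the symbol Aldoa stands on a second gene ID. Of these rows, 35 (34 symbols) reached 1 TPM (a transcript level scaled by gene length and by the total of the library) in 3 or more of the 9 libraries and entered the test, which covered 14207 genes in all. The remaining 3, Egln3, Vegfa and Adm, stayed under that limit and are described by their reads.

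Poly-A RNA was sequenced from J774A.1, an established mouse macrophage line, in 3 libraries per group. Q11 cells received the compound Q11 at the same time as interleukin 4 and interleukin 13, M2 cells received both interleukins (10 ng/mL) alone, and control cells were grown in normal culture. The series title calls Q11 a CYP2E1 inhibitor, CYP2E1 being a cytochrome P450 enzyme. Neither its dose nor the length of treatment is given in the sources used here. The interleukin dose is given for the M2 cells only, so an equal dose in the Q11 cells is not stated. The labels name no exposure to low oxygen in any group. All cells are of 1 line, and the labels do not say whether the libraries of a group came from separate cultures, so a p-value reflects only how far these libraries differ from each other.

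Glycolysis splits glucose into pyruvate in the cytosol and yields ATP without oxygen. Lactate dehydrogenase turns pyruvate into lactate, which leaves the cell through monocarboxylate transporters. Hypoxia-inducible factor (HIF) is a transcription factor whose alpha subunit is marked for destruction by oxygen-dependent prolyl hydroxylases. When oxygen is low it binds a short core motif near many glycolysis genes and raises their transcription. In macrophages, high glycolysis and HIF activity are known above all from the inflammatory state, while the M2 state is known for fatty acid oxidation, with a contribution of glycolysis that has been reported under interleukin 4.

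Whole reads could be recovered from the deposited TPM, with 15815869 to 17095873 reads in 8 libraries and 32193569 in Q11 replicate 2. That library stood apart: it held fewer reads than Q11 replicate 3 in 11 of the 19252 genes read in replicate 3, whereas it held fewer reads than any of the other 7 libraries in 1929 to 2413 genes. Its reads thus appear to include those of Q11 replicate 3, and the Q11 libraries are not 3 separate measurements. A second fit, called here "shared reads separated", subtracts the reads of Q11 replicate 3 from replicate 2, and its values are given wherever they change a call. Every mean and SD of the Q11 cells in the text is taken with shared reads separated, while the values of single libraries and the log2 differences are as deposited unless stated otherwise. The SD of the Q11 libraries was larger after this separation in 27 of the 35 members tested, with a median ratio of 1.23. All 10 macrophage markers were read in every group, with summed levels of 8589 to 8667 TPM in Q11 cells, 8232 to 8853 TPM in M2 cells and 12561 to 12989 TPM in control cells, while the summed markers of 6 other cell types did not pass 1.52 TPM in any library. The part of this lower marker level in the results was not tested. In bulk RNA, fewer cells that express a gene and less RNA per cell cannot be told apart.

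The promoters of 5 members whose levels differed between the groups are shown, each with the core motif that HIF binds. Each line gives the 250 bases just before the RefSeq transcription start in the mouse build GRCm38.p6, written 5′ to 3′ on the strand of the gene. Capitals mark the HIF core motif, ACGTG or GCGTG, on either strand (CACGT or CACGC where it lies on the opposite strand).
Slc16a1 upstream window, chr3:104638414-104638663, plus strand: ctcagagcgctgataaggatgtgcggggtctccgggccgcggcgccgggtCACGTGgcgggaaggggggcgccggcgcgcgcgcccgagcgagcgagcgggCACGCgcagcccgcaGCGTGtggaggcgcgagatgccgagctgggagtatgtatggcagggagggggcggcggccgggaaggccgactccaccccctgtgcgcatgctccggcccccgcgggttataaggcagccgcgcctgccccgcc
Pfkfb4 upstream window, chr9:108991652-108991901, plus strand: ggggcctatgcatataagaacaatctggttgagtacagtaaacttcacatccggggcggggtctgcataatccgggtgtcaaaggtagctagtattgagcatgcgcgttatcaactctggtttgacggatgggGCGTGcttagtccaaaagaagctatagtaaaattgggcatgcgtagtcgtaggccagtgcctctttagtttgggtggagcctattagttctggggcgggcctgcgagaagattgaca
Hk3 upstream window, chr13:55021386-55021635, minus strand: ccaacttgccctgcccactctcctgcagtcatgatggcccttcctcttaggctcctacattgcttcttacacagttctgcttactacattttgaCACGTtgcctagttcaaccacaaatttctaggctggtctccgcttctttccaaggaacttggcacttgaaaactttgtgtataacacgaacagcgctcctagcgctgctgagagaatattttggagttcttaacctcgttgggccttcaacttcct
Ldha upstream window, chr7:46845554-46845803, plus strand: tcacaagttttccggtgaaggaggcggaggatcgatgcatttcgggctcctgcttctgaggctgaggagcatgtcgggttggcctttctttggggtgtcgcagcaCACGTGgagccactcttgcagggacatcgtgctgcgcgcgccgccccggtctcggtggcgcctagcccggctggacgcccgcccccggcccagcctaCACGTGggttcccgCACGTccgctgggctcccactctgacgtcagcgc
Hif1a upstream window, chr12:73907617-73907866, plus strand: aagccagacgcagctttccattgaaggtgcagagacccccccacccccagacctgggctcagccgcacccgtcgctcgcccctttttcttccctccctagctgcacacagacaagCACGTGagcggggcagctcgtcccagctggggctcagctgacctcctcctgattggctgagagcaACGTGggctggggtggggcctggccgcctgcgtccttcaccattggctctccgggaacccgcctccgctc

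The windows of Ldha and Slc16a1 hold 5 and 4 matches to the core, that of Hif1a holds 3, and those of Pfkfb4 and Hk3 hold 1 each. The palindrome CACGTG contains the core once on each strand and was counted at both positions. The Ldha window holds it at 2 places. A window was found for 35 of the 37 members. At least 1 core was present in 28 of these 35 windows (80.0%), against 38.6% of all 32851 RefSeq windows of the same length and 55.7% of the 11846 windows of genes tested here. The palindrome CACGTG, which is also the E-box of MYC-type factors, was present in 5 of the 35 windows (14.3%). It was present in 6.02% of all windows and 8.50% of the windows of genes tested. The spaced motif TTCNNNNGAA, which STAT6 is known to bind downstream of interleukin 4, was present in 4 of 35 windows (11.4%). It was present in 5.85% of all windows and 4.74% of the windows of genes tested. The members had been selected as glycolysis and HIF target genes, and a match to these letters does not show that a factor binds there. Mif, one of the members that stood higher in M2 cells, has no core in its window. Aldoc, called lower in Q11 against control, has 1 core in its window, which is not shown.

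Most glycolytic enzymes were abundant in these cells: 11 of the 16 had a mean level at or above the 90th percentile of the genes tested, and the other 5, Hk1, Hk2, Pfkl, Pfkp and Pfkm, lay between 31.2 and 92.4 TPM. The 16 enzymes together made up 1.49% ± 0.0118 of all TPM in Q11 cells, 1.55% ± 0.0836 in M2 cells and 1.50% ± 0.0369 in control cells (SD, n = 3 each). Among all members, Mif and Slc2a1 included, 8 had a mean of at least 1000 TPM, out of 132 such genes in the whole table, and 13 lay at or above the 90th percentile of the genes tested, whose median was 17.2 TPM. Pkm, the pyruvate kinase gene, had the highest level, with a mean of 2930 TPM over the 9 libraries. It was followed by Aldoa (2516 TPM), the main aldolase, Pgk1 (2205 TPM), phosphoglycerate kinase, and Gapdh (1674 TPM), glyceraldehyde phosphate dehydrogenase. The Gapdh value leaves out reads listed on a near-identical copy, described below, so its place in this order is uncertain. The HIF targets that were tested lay lower, between 74.0 TPM for the mitophagy receptor Bnip3l and 3.22 TPM for Ankrd37, with 3 exceptions: Mif (1114 TPM), Fam162a (120.0 TPM) and P4ha1 (83.2 TPM).

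**Figure D1:**
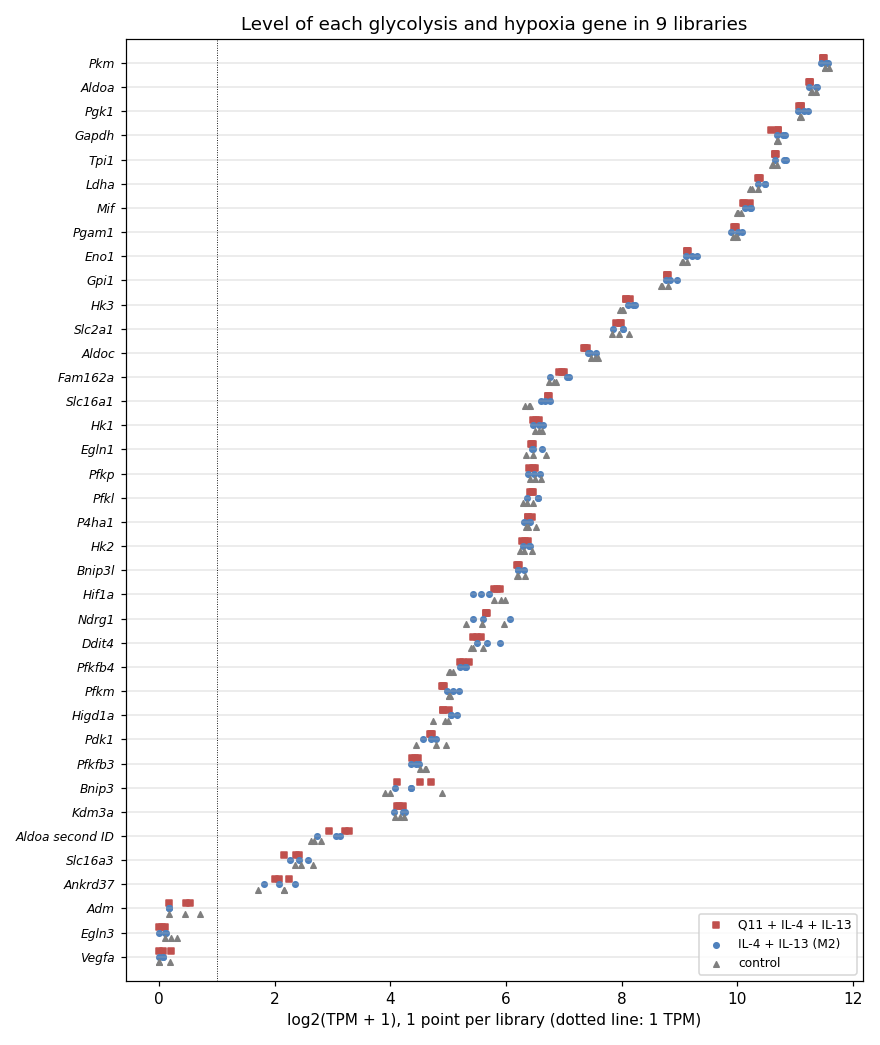
Level of each member in each library as log2(TPM + 1), with 1 point per library (squares for Q11, circles for M2, triangles for control) and members ordered by mean level. The points of a member lie close together across the 9 libraries, and Adm, Egln3 and Vegfa lie left of the dotted line at 1 TPM.

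Several enzymes of the pathway exist as isoforms. The shares below are shares of TPM and depend on the exon lengths by which reads were divided. These were 13401 bases for Pfkp and 6675 for Pfkl, and 8532 for Hk1 and 3682 for Hk3. In Q11 replicate 1, Pfkp had 5408 reads and Pfkl 2746, and Hk3 had 5015 and Hk1 3873. Shares under other lengths were not tested. Among hexokinases, which trap glucose in the cell, Hk3 accounted for 61.4% ± 0.743 of the transcripts in Q11 cells, 62.3% ± 0.374 in M2 cells and 59.6% ± 1.25 in control cells (SD, n = 3 each), ahead of Hk1 and Hk2. Its share was higher in every M2 library (62.0% to 62.7%) than in every control library (58.2% to 60.7%). Among the phosphofructokinase genes, which commit sugar to the pathway, Pfkl and Pfkp had nearly equal shares (42.9% and 42.7% in Q11 cells, 42.2% and 42.1% in M2 cells, 40.3% and 44.2% in control cells), and Pfkm held the rest. Aldoa accounted for 93.8% of aldolase transcripts in Q11 cells, 93.6% in M2 cells and 93.3% in control cells, and Aldoc for the remainder. Of the 2 lactate carriers, Slc16a1 made up 96.4% ± 0.421 in Q11 cells, 95.8% ± 0.640 in M2 cells and 94.6% ± 0.827 in control cells (SD, n = 3 each). Slc16a3, which is known as the HIF-responsive lactate exporter of highly glycolytic cells, was near the limit of the test, with 3.91 ± 0.460 TPM in Q11 cells, 4.37 ± 0.581 TPM in M2 cells and 4.66 ± 0.631 TPM in control cells (SD, n = 3 each).

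The comparison of M2 cells with control cells asks what the interleukins did to the pathway. The lactate carrier Slc16a1, the hexokinase Hk3, the regulatory enzyme Pfkfb4, the cytokine gene Mif and the lactate dehydrogenase gene Ldha rose, by 1.11 to 1.23 times in the ratio of mean TPM, and Hif1a, the alpha subunit of HIF, fell to 0.793 of the control mean. Of the 35 members tested, 5 were called higher and 1 lower at an adjusted p under 0.05 (limma on log2(TPM + 1), two-sided, Benjamini-Hochberg adjustment over all 14207 genes). Over all genes, 12.6% were called in this comparison, 6.88% higher and 5.75% lower, so the members' share of 17.1% stood near the background. With shared reads separated, 4 members were called higher and 1 lower, beside 9.22% of all genes called. At an unadjusted p under 0.05 there were 11 members (31.4%), against 26.1% of all genes. The median log2 difference of the members was 0.05, with 25 of 35 above 0, against a median of -0.003 and 49.4% above 0 over all genes tested. Without M2 replicate 3, 18 of 35 members lay above 0 and their median was 0.01. The groups did not overlap in 7 of the 35 members, against 28.4% of all genes.

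Slc16a1 (ENSMUSG00000032902, chr3:104638668-104658462, plus strand, GRCm38) encodes the proton-linked carrier that passes lactate and pyruvate through the plasma membrane. It had 106, 104 and 105 TPM in the 3 Q11 libraries, 101, 107 and 96.3 TPM in the M2 libraries and 84.1, 79.4 and 82.8 TPM in the control libraries (replicates 1 to 3, here and below). Every Q11 and M2 library lay above every control library, and the Q11 and M2 libraries overlapped. The log2 difference was 0.30 in M2 cells against control cells (SE 0.04, limma adjusted p 0.00179) and 0.35 in Q11 cells against control cells (SE 0.04, adjusted p 0.000803). Both calls held in all 22 alternative analyses, with adjusted p between 2.03e-05 and 0.00933 for M2 against control and between 1.1e-06 and 0.00565 for Q11 against control.

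Hk3 (ENSMUSG00000025877, chr13:55005985-55021385, minus strand) is the hexokinase typical of white blood cells. It had 280 TPM, 269.6 TPM and 269 TPM in the Q11 libraries, 291, 277 and 299 TPM in the M2 libraries and 249.8, 259 and 256 TPM in the control libraries. All M2 libraries, and all Q11 libraries, lay above all control libraries. The log2 difference of M2 against control was 0.18 (SE 0.03, limma adjusted p 0.00997), and it was called in all 22 alternatives. In Q11 against control the difference was 0.10 (95% interval 0.02 to 0.18, adjusted p 0.108).

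Pfkfb4 (ENSMUSG00000025648, chr9:108991778-109032228, plus strand) makes and breaks down the sugar bisphosphate that activates phosphofructokinase. It had 40.01, 37.02 and 35.8 TPM in the Q11 libraries, 38.4, 35.9 and 38.1 TPM in the M2 libraries and 33.1, 31.7 and 31.1 TPM in the control libraries. Again no Q11 or M2 library reached down to the controls. The log2 difference was 0.22 in M2 against control (SE 0.05, limma adjusted p 0.0212) and 0.23 in Q11 against control (SE 0.05, adjusted p 0.0216). Leaving out a single library took the M2 difference past the threshold for control replicate 2 (adjusted p 0.0605), control replicate 3 (0.0712), M2 replicate 1 (0.0689) and M2 replicate 3 (0.0625). The Q11 difference was no longer called when control replicate 2 (0.0644), control replicate 3 (0.0723), Q11 replicate 1 (0.0610) or Q11 replicate 2 (0.0636) was left out.

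Its relative Pfkfb3, a bifunctional enzyme of the same kind with stronger kinase activity, had 21.2, 20.4 and 19.7 TPM in the Q11 libraries, 19.5, 21.6 and 20.8 TPM in the M2 libraries and 21.7, 23.1 and 23.6 TPM in the control libraries. The Q11 libraries and the M2 libraries all lay below the controls. The log2 differences did not pass the test, at -0.14 in M2 against control (adjusted p 0.143) and -0.15 in Q11 against control (adjusted p 0.125). Pfkfb4 thus held 64.7% ± 0.513 of the summed Pfkfb3 and Pfkfb4 transcripts in Q11 cells, 64.5% ± 1.89 in M2 cells and 58.4% ± 1.78 in control cells (SD, n = 3 each). Pdk1 encodes a kinase that inhibits pyruvate dehydrogenase and so restrains the use of pyruvate in mitochondria. It averaged 25.2 ± 0.376 TPM in Q11 cells, 24.8 ± 2.05 TPM in M2 cells and 25.8 ± 4.79 TPM in control cells (SD, n = 3 each).

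Hif1a (ENSMUSG00000021109, chr12:73901375-73947530, plus strand) had 54.1, 58.3 and 56.3 TPM in the Q11 libraries, 46.3, 51.2 and 42.2 TPM in the M2 libraries and 59.4, 54.3 and 62.4 TPM in the control libraries. Every M2 library lay below every library of both other groups, while the Q11 and control libraries overlapped. The log2 difference of M2 against control was -0.33 (SE 0.07, limma adjusted p 0.0203). It was not called when control replicate 1 (adjusted p 0.0650), control replicate 3 (0.0700), M2 replicate 1 (0.0586) or M2 replicate 3 (0.0512) was left out. With shared reads separated it held (adjusted p 0.0320). Transcript levels say nothing of the HIF protein, which is set mainly by its degradation. Egln1, the prolyl hydroxylase that marks HIF for degradation, averaged 87.3 ± 2.69 TPM in Q11 cells, 90.5 ± 6.18 TPM in M2 cells and 90.004 ± 11.6 TPM in control cells (SD, n = 3 each).

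Mif (ENSMUSG00000033307, chr10:75859353-75860240, minus strand) encodes a secreted cytokine of macrophages that HIF is known to induce. It had 1184, 1103 and 1098 TPM in the Q11 libraries, 1121, 1190 and 1201 TPM in the M2 libraries and 1037, 1020 and 1072 TPM in the control libraries. All libraries of both treated groups lay above all control libraries. The log2 difference of M2 against control was 0.17 (SE 0.04, limma adjusted p 0.0259). The call dropped out when control replicate 1 (adjusted p 0.0795), control replicate 2 (0.0820), M2 replicate 2 (0.0656) or M2 replicate 3 (0.0739) was left out, with no filter on low values (0.0726) and with no mean-variance trend (0.0737). In Q11 against control the difference was 0.11 (adjusted p 0.112).

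Ldha (ENSMUSG00000063229, chr7:46841475-46855627, plus strand), the lactate dehydrogenase subunit that favours lactate formation, had 1315, 1327 and 1347 TPM in the Q11 libraries, 1421, 1303 and 1424 TPM in the M2 libraries and 1223, 1195 and 1304 TPM in the control libraries. M2 replicate 2 lay just under control replicate 3, so the groups overlapped by 1 library. The log2 difference of M2 against control was 0.16 (SE 0.04, limma adjusted p 0.0457), at the edge of the threshold. The call was made in 11 of 22 alternatives, held without M2 replicate 2 (adjusted p 0.0146) and without control replicate 3 (0.0301), and was lost when any of the other libraries was left out (adjusted p 0.0658 to 0.133) and with shared reads separated (0.0593).

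**Figure D2:**
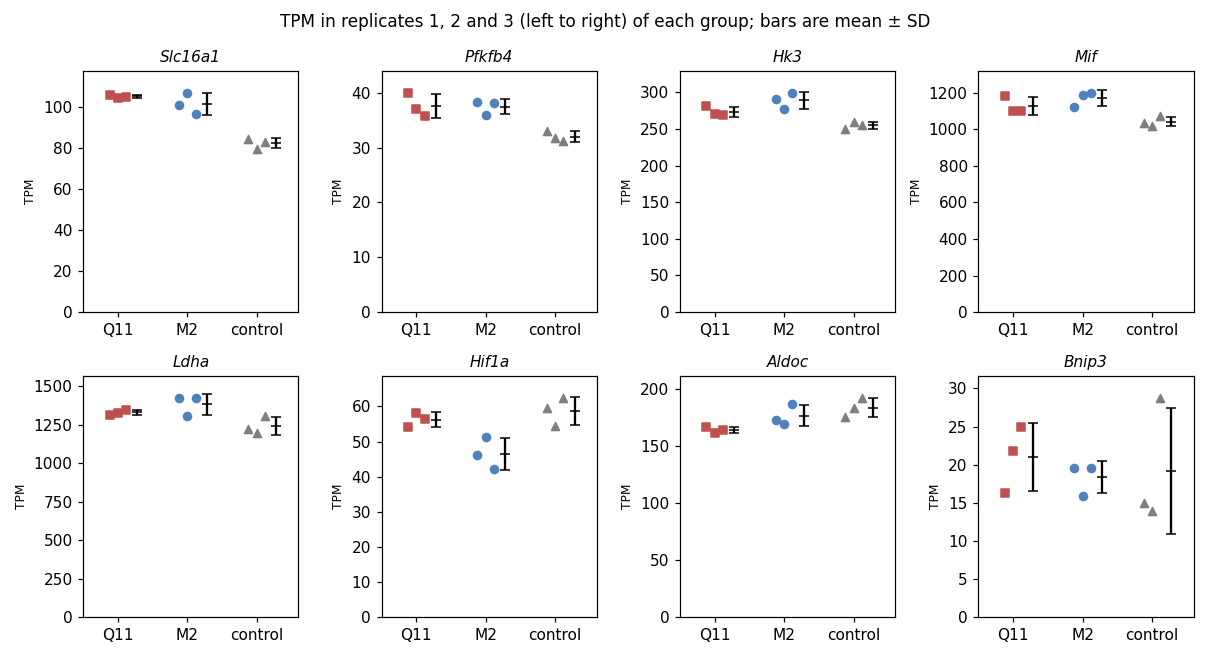
TPM in each library (replicates 1, 2 and 3 from left to right) for 7 members called in at least 1 comparison and for Bnip3, on linear axes from 0, with bars for mean ± SD of 3 libraries as deposited. Slc16a1 and Pfkfb4 are higher in all Q11 and M2 libraries than in the controls, Hif1a is lowest in the M2 libraries, and the control libraries of Bnip3 span 14.0 to 28.7 TPM.

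Of the other glycolytic enzymes, none was called in M2 against control, and their differences were small. Tpi1 (triose phosphate isomerase), Eno1 (enolase) and Gpi1 (glucose phosphate isomerase) had log2 differences of 0.13 (adjusted p 0.111), 0.13 (adjusted p 0.0989) and 0.12 (adjusted p 0.151). Without M2 replicate 2, Tpi1 (adjusted p 0.00782), Eno1 (0.0201) and the HIF target Fam162a (0.00931) were called too. The limma fit to voom-weighted recovered reads also called Tpi1 (adjusted p 0.00879, and 0.0136 with shared reads separated), Eno1 (0.0106 and 0.0170) and Gpi1 (0.0250 and 0.0353). Gapdh had 1659, 1535 and 1674 TPM in the Q11 libraries, 1773, 1646 and 1812 TPM in the M2 libraries and 1649, 1655 and 1665 TPM in the control libraries. M2 replicate 2 of Gapdh lay below every control library. Pkm had 2881, 2868 and 2870.3 TPM in the Q11 libraries, 2969, 2793 and 3020.4 TPM in the M2 libraries and 2944 TPM, 2944 TPM and 3081 TPM in the control libraries. The log2 difference of Pkm in M2 against control was -0.03 (95% interval -0.11 to 0.05), and it turned to 0.08 with quantile normalization. Pgk1 and Pgam1, the kinase and the mutase of the lower pathway, differed by 0.05 and 0.03, with adjusted p of 0.525 and 0.729.

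Of the genes that bring glucose into the pathway, Slc2a1 and Hk2 showed no difference that passed the test, unlike Hk3. Among 8 other genes of glucose and lactate transport tested, only Slc2a6 was called, lower in M2 against control (12.5%, against 12.6% of all genes). The same gene alone was called lower in Q11 against control (12.5%, against 10.7% of all genes). Slc2a1, the main glucose carrier GLUT1 of most cells, had 239, 253 and 251 TPM in the Q11 libraries, 260.2 TPM, 229 TPM and 260.3 TPM in the M2 libraries and 245, 226 and 277 TPM in the control libraries. The controls spanned the range of both other groups, and the log2 difference of M2 against control was 0.01 (95% interval -0.17 to 0.18). Hk2, the hexokinase that HIF induces, had 81.9, 78.9 and 76.3 TPM in the Q11 libraries, 83.7, 77.6 and 84.3 TPM in the M2 libraries and 74.3, 78.6 and 86.1 TPM in the control libraries. These 3 groups overlapped as well, with a log2 difference of 0.04 in M2 against control (95% interval -0.09 to 0.17). The intervals of the 35 members had a median half-width of 0.12 on the log2 scale, so differences well under that size could not be seen with 3 libraries a group.

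Among the HIF targets other than Mif, no member passed the test in M2 against control. Ddit4, an inhibitor of mTOR signalling, had 46.4, 42.0 and 44.0 TPM in the Q11 libraries, 58.4, 43.9 and 49.8 TPM in the M2 libraries and 41.9, 40.9 and 47.7 TPM in the control libraries. M2 replicate 1 of Ddit4 lay above all other libraries, and the log2 difference was 0.21 (adjusted p 0.219). Higd1a, a small mitochondrial protein gene induced by low oxygen, was higher in every M2 library than in every control library, at 32.9 ± 1.53 TPM in M2 cells against 28.9 ± 2.84 TPM in control cells (SD, n = 3 each), with an adjusted p of 0.132. Bnip3, a mitophagy receptor and one of the classic HIF targets, had 16.3, 21.8 and 25.01 TPM in the Q11 libraries, 19.6 TPM, 15.9 TPM and 19.6 TPM in the M2 libraries and 14.9, 14.0 and 28.7 TPM in the control libraries. Control replicate 3 of Bnip3 was 2.06 times as high as control replicate 2, the widest span of any tested member within a group, and its difference between M2 and control cells was 0.01 with a 95% interval of -0.57 to 0.58. Ndrg1, a stress-response gene, spanned 1.56 times among M2 libraries and 1.59 times among control libraries, with the highest value in replicate 3 of each. P4ha1 and Kdm3a, a collagen prolyl hydroxylase subunit and a histone demethylase, averaged 82.5 and 16.7 TPM in Q11 cells, 81.8 and 17.1 TPM in M2 cells and 84.2 and 16.9 TPM in control cells.

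Egln3, Vegfa and Adm, which are strongly induced by HIF in many cells, were close to absent. Egln3, the prolyl hydroxylase of the negative feedback, had 1, 1 and 0 reads in the Q11 libraries, 1, 1 and 0 in M2 cells and 3, 2 and 1 in controls. Vegfa, the vascular growth factor, had 1, 6 and 0 reads in the Q11 libraries, 0, 1 and 1 in M2 cells and 0, 3 and 0 in controls. Adm, the vasodilator peptide adrenomedullin, had 3, 7 and 1 reads in the Q11 libraries, 1, 1 and 1 in M2 cells and 1, 3 and 5 in controls. A count of 0 still allows 3 reads, which for Vegfa corresponds to 0.140 TPM in Q11 replicate 3, 0.139 TPM in M2 replicate 1 and 0.144 TPM in control replicate 1, and these limits cover counting error only. No difference between groups was detectable for these genes at this depth.

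**Figure D3:**
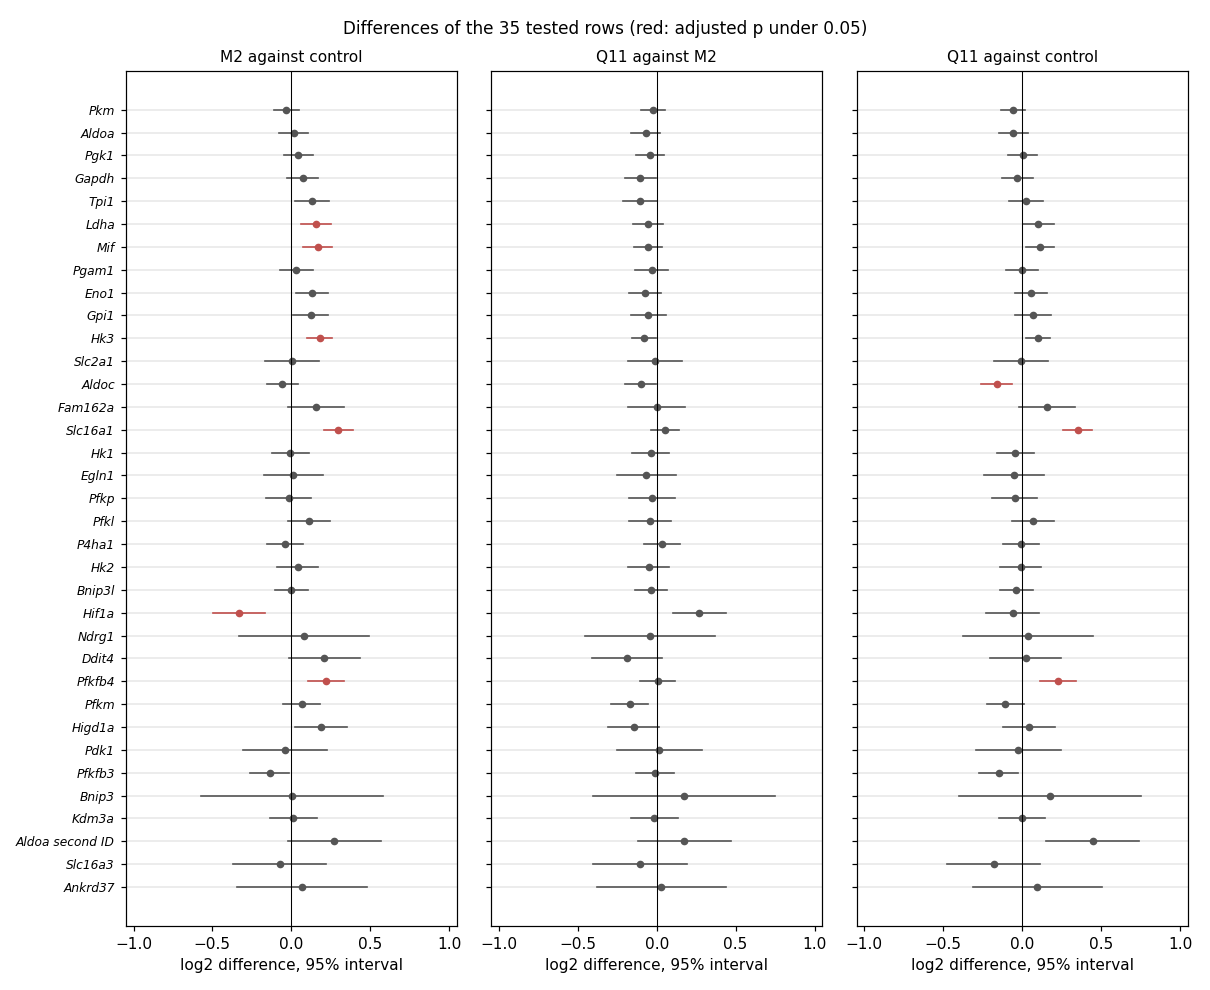
Log2 difference of each tested member with its 95% interval, with M2 against control on the left, Q11 against M2 in the middle and Q11 against control on the right, in red where the adjusted p was under 0.05. Apart from the second Aldoa row (0.45), no point lies further from 0 than that of Slc16a1 (0.35), and the middle panel has no red point.

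Beyond the averages, the members shifted together from library to library within a group. M2 replicate 2 was the lowest of the 3 M2 libraries in 27 of 35 members (77.1%) and in 16 of the 17 enzyme rows, against 33.2% of all genes tested. M2 replicate 3 was the highest in 23 of 35 members (65.7%) and in 15 of the 17 enzyme rows, against 32.7% of all genes. Control replicate 3 was the highest control in 25 of 35 members (71.4%) and in 14 of the 17 enzyme rows, against 34.5% of all genes. The median deviation of the members from their group mean was -0.09 in M2 replicate 2, 0.06 in M2 replicate 3 and 0.06 in control replicate 3 on the log2 scale. These medians are larger in size than the members' median difference of 0.05 between M2 and control cells. Slc16a1, Hif1a, Bnip3l, Pfkm, Pfkfb3 and Higd1a ran the other way among the M2 libraries, with their highest value in M2 replicate 2. In the Q11 libraries, where replicates 2 and 3 share reads, the members had no common shift of this size, with median deviations of 0.002, -0.002 and -0.002.

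**Figure D4:**
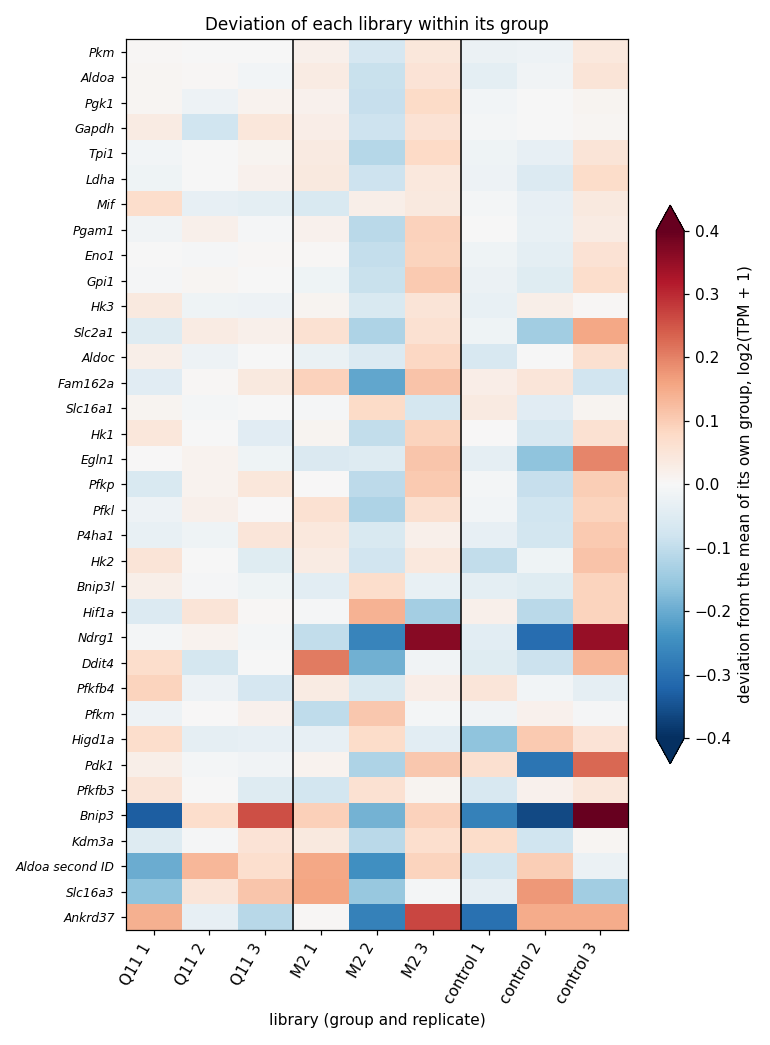
Deviation of each library from the mean of its own group on the log2(TPM + 1) scale, for the 35 tested members (rows, by level) and the 9 libraries (columns). The column of M2 replicate 2 is mostly blue (lower) and those of M2 replicate 3 and control replicate 3 mostly red (higher), and the strongest colours are in Ndrg1 and Bnip3.

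The comparison of Q11 cells with M2 cells asks what the compound changed in cytokine-treated cells. None of the 35 members passed the threshold, and none of the 14207 genes did (0% called, limma with Benjamini-Hochberg adjustment). The same fit to voom-weighted recovered reads called 0 members and 2 genes. At an unadjusted p under 0.05 there were 6 members (17.1%), namely Hif1a, Pfkm, Hk3, Gapdh, Aldoc and Tpi1, against 11.4% of all genes, and 3 (8.57%) with shared reads separated, against 8.04% of all genes. The groups did not overlap in 4 members (11.4%), Hif1a, Pfkm, Aldoc and Higd1a, against 17.6% of all genes, and in the same 4 with shared reads separated, against 12.5% of all genes. Of the 17 enzyme rows, 16 had a difference below 0 (15 with quantile normalization), with a median of -0.05, and over the 35 members 26 lay below 0, against 50.4% of all genes. Without M2 replicate 3, 13 of the 17 enzyme rows and 20 of the 35 members lay below 0, and the members' median was -0.005. With shared reads separated as well, 11 of the 17 enzyme rows and 16 of the 35 members lay below 0, and the members' median was 0.002. Without M2 replicate 2, 14 members (40.0%) had an unadjusted p under 0.05, against 15.2% of all genes, and the median was -0.09.

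Hif1a had the smallest p of the members in this comparison. It averaged 57.2 ± 3.59 TPM in Q11 cells and 46.6 ± 4.52 TPM in M2 cells (SD, n = 3 each). As deposited, the log2 difference was 0.27 (95% interval 0.10 to 0.44) with an unadjusted p of 0.00524 and a limma adjusted p of 0.312. The Q11 libraries all lay above the M2 libraries, as the 9 values above show. With an adjusted p of 0.312 this difference is not called, and it shares the M2 libraries with the M2 against control comparison, in which Hif1a fell. Pfkm, the muscle-type phosphofructokinase, had 28.7, 29.2 and 29.5 TPM in the Q11 libraries and 30.7, 35.6 and 32.8 TPM in the M2 libraries, without overlap, and a log2 difference of -0.17 (95% interval -0.29 to -0.05, adjusted p 0.338). Higd1a averaged 29.7 ± 1.24 TPM in Q11 cells and 32.9 ± 1.53 TPM in M2 cells (SD, n = 3 each), also without overlap (adjusted p 0.475). As deposited, the log2 difference of Pkm was -0.03 (95% interval -0.10 to 0.05), that of Pgk1 was -0.04 (-0.13 to 0.05) and that of Ldha was -0.05 (-0.15 to 0.04). These intervals treat the Q11 libraries as 3 separate measurements, which they are not, and may be too narrow.

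The comparison of Q11 cells with control cells combines the interleukins and the compound, and it shares the control libraries with the M2 against control comparison. In it Slc16a1 and Pfkfb4 rose, with the values given above, and Aldoc, the aldolase isoform typical of brain, fell. These 2 members called higher and 1 called lower among 35 (8.57%) stand beside 10.7% called over all genes, 5.19% higher and 5.53% lower. With shared reads separated, 2 were higher and none lower, beside 7.89% of all genes called. At an unadjusted p under 0.05 there were 8 members (22.9%), against 23.9% of all genes. The groups did not overlap in 12 members (34.3%), against 32.1% of all genes, and in 11 (31.4%) with shared reads separated, against 26.7% of all genes. The members' median log2 difference was -0.001, with 17 of 35 above 0, against 51% of all genes.

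Aldoc (ENSMUSG00000017390, chr11:78322968-78327781, plus strand) had 167, 162 and 164 TPM in the Q11 libraries, 173, 170.0 and 187 TPM in the M2 libraries and 176, 184 and 192 TPM in the control libraries. The Q11 libraries lay below all others, and the M2 libraries overlapped with the controls. The log2 difference of Q11 against control was -0.16 (SE 0.04, limma adjusted p 0.0484), at the edge of the threshold. It was called in 11 of 22 alternatives. Those in which it was lost include shared reads separated (adjusted p 0.0613), median-ratio scaling (0.0530), no filter on low values (0.0916), no mean-variance trend (0.108), and the fits without control replicate 2 (0.110), control replicate 3 (0.142), M2 replicate 1 (0.0629), Q11 replicate 1 (0.0891), Q11 replicate 2 (0.151) and Q11 replicate 3 (0.134).

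The second row that carries the symbol Aldoa (ENSMUSG00000114515), at chr7:126800790-126809108 on the minus strand of GRCm38 beside the main Aldoa gene (ENSMUSG00000030695, chr7:126795234-126800751), was low and had the largest difference of the members. It had 6.70, 8.69 and 8.27 TPM in the Q11 libraries, 7.72, 5.61 and 7.33 TPM in the M2 libraries and 5.16, 5.94 and 5.38 TPM in the control libraries. All Q11 libraries lay above all controls, and the log2 difference was 0.45 (95% interval 0.15 to 0.74), with an adjusted p of 0.0612. The main Aldoa row was lower in all Q11 libraries than in all controls as deposited, but not with shared reads separated, and differed by -0.06 in Q11 against control (adjusted p 0.460). The groups of Hk3, Mif, Pfkfb3, Ldha, Pfkm, Fam162a and Pkm also did not overlap between Q11 and control cells, and their adjusted p lay between 0.108 for Hk3 and 0.361 for Pkm.

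**Figure D5:**
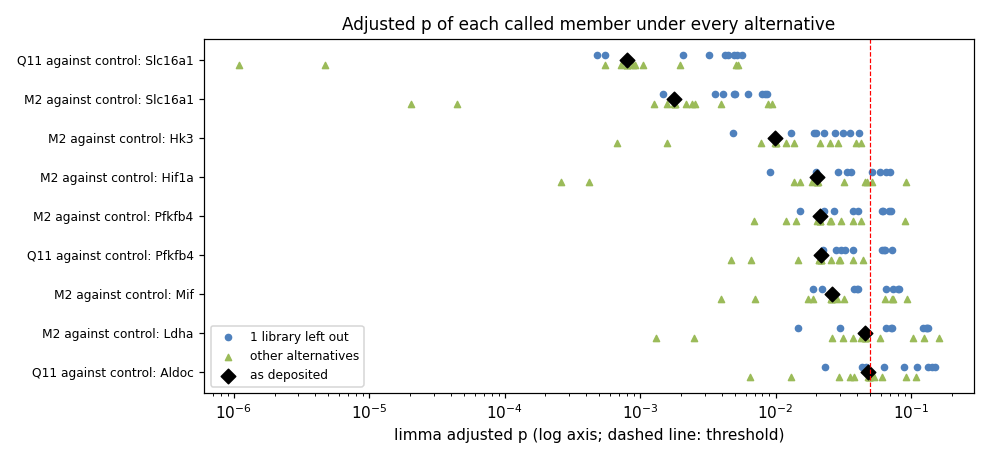
Limma adjusted p (log axis) of the 9 called differences of 7 members as deposited (diamonds), with 1 library left out (circles) and under the other alternatives (triangles), with the threshold of 0.05 as a dashed line. All points of Slc16a1 and Hk3 lie left of the line, while the other 6 differences have points on both sides.

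A few enzymes have near-identical copies in the genome, which can share reads with the parent gene. The processed pseudogene Gm13394 matches Gapdh in 999 of 1000 aligned bases (99.9%) and was listed at a mean of 3319 TPM in Q11 cells, 3240 TPM in M2 cells and 3092 TPM in control cells, so it held 30.6% to 34.4% of the joined reads. Eno1b, a copy of Eno1 that matches it in 1376 of 1385 aligned bases (99.4%), held 18.8% to 20.7% of the joined reads. The Gapdh and Eno1 levels are therefore uncertain by these shares. With its copy joined, Gapdh ranged from 2341 TPM (Q11 replicate 2) to 2612 TPM (M2 replicate 3) and lay above Pgk1 (2108 to 2373 TPM) in every library. With each copy joined to its parent, 3 members were called in Q11 against control, 0 in Q11 against M2 and 6 in M2 against control, the counts of the separate rows. At an unadjusted p under 0.05 in Q11 against M2, joining the copies left 5 members (14.3%), against 6 with separate rows. The share of all genes was 11.4% either way. Exons of 14 member rows overlap those of 16 other genes of the table, 14 of them on the opposite strand, and strand use in counting was not stated. Among the called members these are Hk3 and Hif1a, whose partners Unc5a and Gm15283 averaged 0.441 and 0.703 TPM.

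Other genes of the same pathways, 85 rows tested of glycolysis, glucose and lactate transport, pyruvate entry, the pentose phosphate pathway, HIF regulation, HIF targets and glucose sensing, gave 8 called higher and 5 lower in Q11 against control (15.3%, against 10.7% of all genes), 0 in Q11 against M2, and 10 higher and 5 lower in M2 against control (17.6%, against 12.6% of all genes). These shares stood near the background. Eno3, the muscle-type enolase, stood out among the enzymes, with 128 ± 1.46 TPM in Q11 cells, 141 ± 8.47 TPM in M2 cells and 106 ± 2.19 TPM in control cells (SD, n = 3 each), a log2 difference of 0.41 in M2 against control. Myc, a transcription factor that raises glycolysis genes, averaged 22.5 ± 0.862 TPM in Q11 cells, 22.3 ± 0.556 TPM in M2 cells and 14.9 ± 1.81 TPM in control cells (log2 difference 0.56 in M2 against control, limma adjusted p 0.00198). Txnip, which restrains glucose uptake and is itself induced by glucose, averaged 133 ± 3.55 TPM in Q11 cells, 135 ± 6.23 TPM in M2 cells and 172 ± 2.35 TPM in control cells (log2 difference -0.35). Of the 13 HIF regulators tested, 3 were called higher and 1 lower in M2 against control (30.8%, against 12.6% of all genes). Their log2 differences ran from -0.47 to 0.22. Among those called higher, Epas1, the second HIF alpha subunit, rose to 104 ± 3.79 TPM in M2 cells, against 91.3 ± 1.61 TPM in control cells. Cited2, which competes with HIF for its coactivator, rose to 110 ± 3.16 TPM in M2 cells, against 94.9 ± 5.67 TPM in control cells (SD, n = 3 each). Of the 28 other HIF targets tested, 3 were called higher and 2 lower in M2 against control (17.9%, against 12.6% of all genes). In that comparison 14 of the 28 lay above 0 and 14 below, with a median log2 difference of 0.007. The extremes were Tfrc, the transferrin receptor, which rose by 0.54 on the log2 scale, and Cxcr4, a chemokine receptor, which fell by 0.83.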

How the data were processed

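Poly-A RNA of 9 libraries (3 each of Q11, M2 and control J774A.1 cells) was measured. Gene levels were deposited as TPM in a single table covering 26157 genes. Per the submitters' processing notes, the tools include StringTie 1.3.3b and HISAT2 2.0.5, and the build is GRCm38 (mm10). The annotation release and the counting options are not given in the sources used here. Member rows were matched by symbol. The limma package (3.58.1, R 4.3.3) fitted a mean for each group to log2(TPM + 1) over the 9 libraries (contrasts.fit, eBayes with trend, 6 residual degrees of freedom). Genes reaching 1 TPM in 3 or more libraries entered, tests were two-sided, with Benjamini-Hochberg adjustment over all genes tested and a threshold of 0.05. Differences on this scale understate changes of low genes.

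TPM times the union exon length in GENCODE mouse release 21 (97.8% of the IDs) gave whole reads after division by a library constant: 98.8% to 99.1% of values up to 20 reads were whole within 0.1 read. The TPM values of Q11 replicate 2 with shared reads separated were computed from 15336308 remaining reads, and 14015 genes were tested. All members are reported, and those past the threshold are given in every library. The members and gene lists were chosen with earlier results of these data known. Promoters came from RefSeq (GRCm38.p6). The fit was tested on simulated data. Python 3.11.15, pandas 2.3.3, numpy 2.4.6 and matplotlib 3.10.9 were used for tables and plots. Alternatives were other pseudocounts (0.1 and 0.5 TPM), filters (none, 5 TPM), scalings, a replicate block, no trend, limma-voom on recovered reads, shared reads separated, and each library left out.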

Additional observations from a re-analysis of the deposited data

How the results depend on the processing

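Of the 9 differences of single members that passed the threshold, those of Slc16a1 (both comparisons with control) and of Hk3 in M2 against control passed it under all 22 alternatives, and all 9 kept their sign. Called members in M2 against control numbered 6 as deposited, 9 (of 35, 25.7%) with limma-voom, with or without shared reads separated, and 2 to 8 with 1 library left out. Called genes there numbered 1794 as deposited, 2260 (16.2%) with limma-voom, 1916 (13.7%) with limma-voom and shared reads separated, and 1146 to 1656 with 1 library left out. Separating shared reads and leaving out M2 replicate 3 as well, an alternative chosen after seeing the data, gave 2 members and 850 genes. Joined copies and limma-voom with shared reads separated were also chosen after seeing the data. Called genes in Q11 against M2 numbered 0 as deposited, 3 with no filter, 2 with no mean-variance trend, 2 with limma-voom and 0 to 2 with 1 library left out, while called members numbered 0 throughout. Called members in Q11 against control numbered 3 as deposited, 6 (17.1%) with quantile normalization and 5 (14.3%) with limma-voom. Over all genes, 1524 (10.7%), 1525 (10.7%) and 2113 (15.1%) were called in these 3 analyses. With 1 library left out, 1 to 5 members and 771 to 1616 genes were called in Q11 against control. Quantile normalization turned the sign of several differences. Among them were Pkm in both comparisons with control and Ldha in Q11 against M2, none of them called. Members above 0 in M2 against control numbered 25 as deposited and 23 with quantile normalization. The cause of these changes was not tested.

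Replicate numbers were shared between groups. Over all genes tested, correlations between the deviations of same-numbered libraries lay between -0.03 and 0.04, and those of other pairs between -0.05 and 0.06. The numbers thus showed no pairing over all genes. Values over all genes cannot decide whether the members shared a shift by replicate number. With the replicate block, 2 members (5.71%) and 1086 genes (7.64%) were called in Q11 against control, none in Q11 against M2, and 4 members (11.4%) and 1335 genes (9.40%) in M2 against control. The differences of Hif1a (adjusted p 0.0518) and Mif (0.0638) in M2 against control and of Aldoc (0.05005) in Q11 against control then missed the threshold, and no other of the 9 calls changed. The precision is limited by 3 libraries a group, and in the Q11 group by the shared reads.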
